A study of Mus musculus with 35 samples.

Results

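Ion channel subunit genes were followed across the 4 cell populations of the embryonic mouse brain. They were the protein-coding genes whose symbols begin with Kcn (potassium channels), with Cacn (voltage-gated calcium channels), or with Scn followed by a number and the letter a or b (voltage-gated sodium channels). Of 139 symbols that matched, 5 were not protein-coding and 4 potassium genes (*Kcnj8*, *Kcne3*, *Kcne4* and *Kcng1*) were left out by the rule. The remaining 130 genes were all found among the 53465 genes of the bulk table. The rule names symbols and no measured value, but it was set with earlier results of these data known.

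The study sorted neural, mural, endothelial and microglial cells from dissociated mouse brains at E14.5, mid-gestation. Bulk RNA-seq covered 12 libraries, 1 of each population from each of 3 wild-type brains, whose numbers end the library names (N-340, then N-343, then N-346 in neural cells, with Mu, Ec and Mi in place of N for mural, endothelial and microglial cells). Values of 3 libraries are given in that order of brains, and no group carried a further allele or treatment. The neural population was the fraction left unstained by the markers of the others, and it is a mixture of progenitors and migrating neurons. Single wild-type cells of the same 4 sort gates, on 3 plates, were profiled by mCEL-Seq2, a plate method in which molecular identifiers tell transcripts from copies. The wells taken here as microglia carry the sort label CD45 medium with CD41 positive, whereas the study's text names CD11b and CD45 for that gate. Neural RNA was extracted and prepared with other kits (Qiagen mini, TruSeq) than the RNA of the other 3 populations (miRNeasy Micro, SMART-Seq v4 amplification, Nextera XT). The kits and the neural population cannot be told apart in the bulk data, so mural, endothelial and microglial libraries were also compared without the neural ones, and the single cells, which had 1 chemistry for all gates, are given beside the bulk values.

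Ion channels of these families set the electrical state of a cell. Voltage-gated sodium channels open on depolarization and carry the rising phase of the action potential, and voltage-gated potassium channels end it. Voltage-gated calcium channels turn depolarization into calcium entry, with a pore subunit (Cacna1) joined by alpha2delta (Cacna2d) and beta (Cacnb) subunits that govern its trafficking and gating. Inward rectifiers (Kcnj) and two-pore channels (Kcnk) hold the resting potential and are used by non-excitable cells as well. In the vessel wall, potassium channels of smooth muscle, pericytes and endothelium regulate tone, and in microglia they set the resting potential and govern surveillance and cytokine release.

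The deposited bulk values are normalized read counts, and the libraries held between 17638358 and 98414914 reads on genes, so that 1 read is worth between 0.264 and 1.77 normalized counts. The 4 labels were checked against marker lists. Summed mural markers ranged from 690386 to 743783 normalized counts in mural libraries and reached at most 7274 elsewhere, and microglial markers ranged from 404739 to 430632 in microglia against at most 1440.3 elsewhere. Endothelial markers ranged from 167739 to 202214 in endothelial libraries and from 8173 to 11724 in mural ones. In the mural libraries that sum was led by *Emcn* (4980, beside 4905 in endothelial libraries) and *Esam* (4293, or 32.8% of its endothelial mean). The other endothelial genes of the list were in mural libraries at most 1.43% (*Cd93*) of their endothelial mean. The neural list was less clean, with 145497 to 156589.6 in neural libraries, 34730.1 to 64081 in mural, 16693 to 18433 in endothelial and 6849 to 10007 in microglial ones, and none of its 10 genes was at 0 in all 3 libraries of any population. In the mural libraries that sum was led by *Fabp7* (26942) and *Sox11* (18062), the first of which was above its neural mean of 7602. The other genes of the list ran in mural libraries from 1.399% (*Neurod2*) to 46.7% (*Sox11*) of their neural mean, with *Tubb3* at 3.47%, *Gad2* at 10.7% and *Gap43* at 15.3%. Erythroid markers were present in endothelial (12168 to 32942) and neural libraries (8484 to 11347). Fewer cells of a type and less RNA per cell cannot be told apart in bulk samples.

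Channel subunit genes were mainly a neural feature of these libraries. Of the 130 genes, 104 had a mean of at least 10 normalized counts over the 12 libraries and were tested. Their highest mean fell in neural libraries for 71 genes, in mural for 13, in endothelial for 11 and in microglial libraries for 9. Across all 19765 genes tested, the highest mean was neural in 33.9%, mural in 20.4%, endothelial in 21.0% and microglial in 24.7%. All 3 neural libraries lay above the 9 others for 65 of the 104 genes (25.2% of all genes tested behaved so), while mural libraries lay above the rest for 4 of the 104 (7.25%), endothelial ones for 9 (6.28%) and microglial ones for 6 (11.5%). Of the 104, 15 were above 0 in all 12 libraries, against 62.0% of all genes. Each population was set against the mean of the other 3 with limma on log2(normalized count + 1), and a gene was called at a Benjamini-Hochberg adjusted p under 0.05 over all genes tested. Higher in neural cells were 82 of the 104, against 32.9% of all genes, and 71 of them were over 10-fold higher, against 13.8% of all genes. Lower in neural cells were 9 (31.2% of all genes). The median log2 difference of the 104 genes was 5.19 in this contrast and that of all genes 0.09. Higher in mural cells were 15 (19.3% of all genes), in endothelial cells 15 (19.7%) and in microglia 11 (23.4%). These 3 counts, out of 104, lie below the background share. Over 10-fold higher were 9 in mural (4.99% of all genes), 10 in endothelial (6.28%) and 6 in microglial cells (8.27%), while 54, 50 and 36 of the 104 were lower, where the background was 22.7%, 22.4% and 22.3%. The 9 in mural cells became 4 with a pseudocount of 5, and the 6 in microglia became 11 with edgeR on recovered reads. A gene can be called in more than 1 population, since each was compared with a mean that includes the others.

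**Figure D1:**
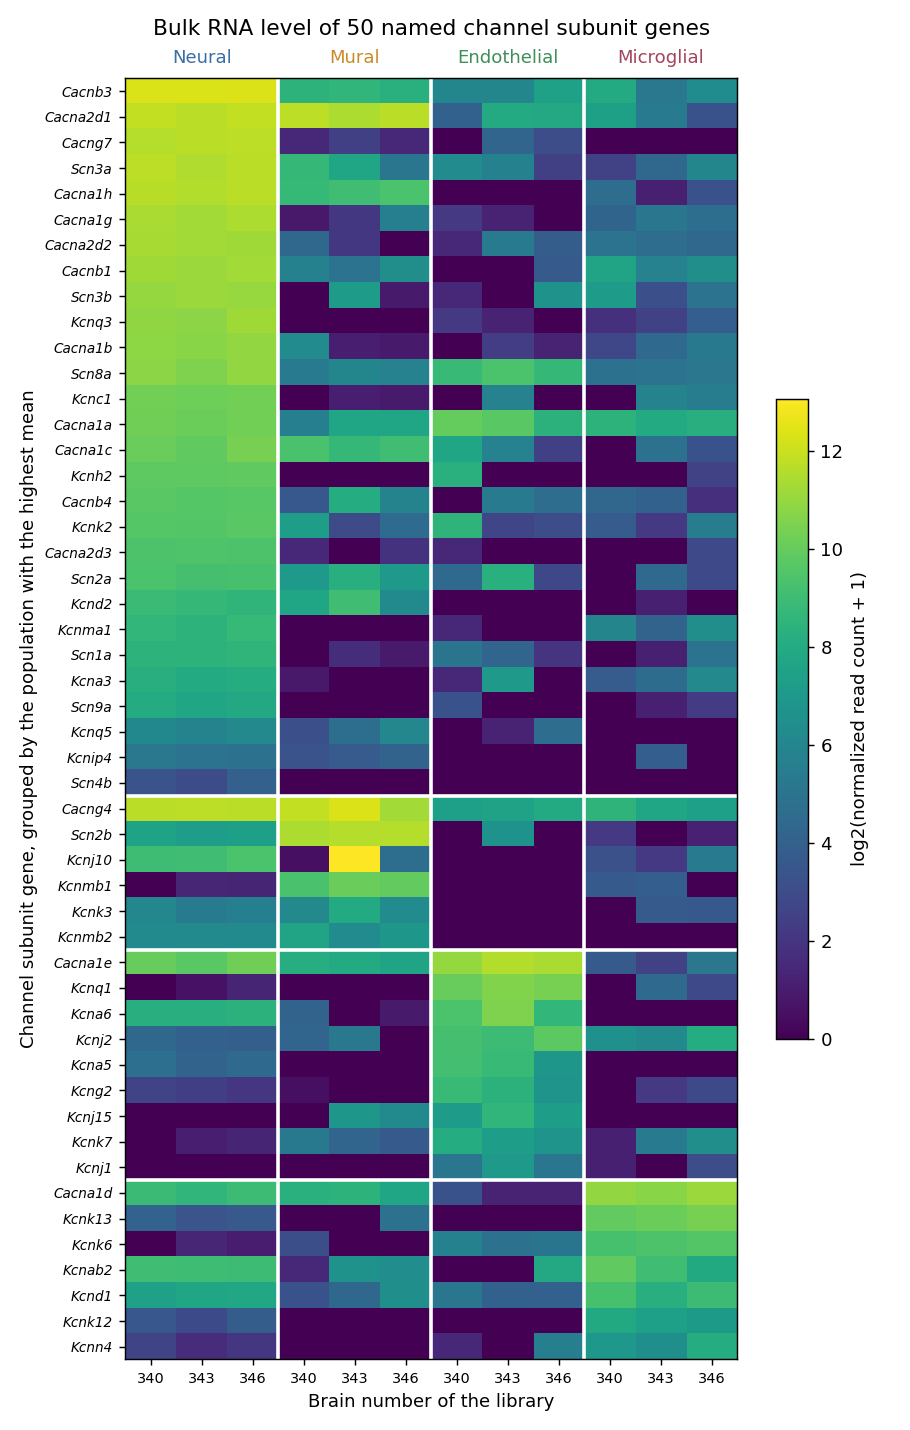
Level of 50 channel subunit genes named by a fixed rule, as log2(normalized read count + 1), in the 12 bulk libraries (columns, by brain number) grouped by the population with the highest mean (rows). The upper block is bright in the 3 neural libraries alone for genes such as *Kcnq3* and *Cacng7*, and the lower blocks hold the 6 mural, 9 endothelial and 7 microglial genes.

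The 26 genes below the minimum were led by *Kcnj6* at a mean of 8.92 over the 12 libraries, and *Kcnk16* was at 0 in all 12. The untested genes include *Scn4b*, *Scn7a* and *Scn10a*, the muscle gene *Cacng1*, and the cardiac accessory subunits *Kcne1* and *Kcne2*. The spread between libraries was small in neural samples and wide in amplified ones. Among genes with a mean of at least 100 in the population, the SD was 7.02% of the mean in the median of 68 channel genes in neural libraries, 42.6% for 24 genes in mural, 58.5% for 20 in endothelial and 44.9% for 14 in microglial libraries. Over all genes at that level the medians were 4.36%, 23.6%, 31.8% and 21.7%.

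To compare families, normalized counts were divided by the length of the merged exons and summed, which gives a level per kb. Summed over all 130 genes, this level was 11513 ± 359.7 (SD, n = 3) in neural, 3800.5 ± 1300.2 in mural, 1938 ± 109.5 in endothelial and 1786 ± 171 in microglial libraries. The calcium channel gamma subunits made up the largest neural sum, at 2675 ± 63.9 per kb, followed by the voltage-gated potassium pore subunits at 2114 ± 105 and the calcium channel beta subunits at 1915 ± 46.5. In endothelial libraries the voltage-gated potassium pore subunits were the largest family (819.6 ± 261 per kb), in mural libraries, by the mean of 3, the gamma subunits (1104 ± 432), almost wholly *Cacng4*, and in microglia the two-pore potassium subunits (672 ± 83.3). The gamma subunits were the largest mural family in Mu-340, the inward rectifiers in Mu-343 and the sodium channel beta subunits in Mu-346. Sodium channel pore subunits were scarce outside neural cells, at 495 ± 45.2 per kb in neural, 35.7 ± 16.3 in mural, 52.5 ± 21.1 in endothelial and 13.5 ± 4.44 in microglial libraries. The sodium channel beta subunits had their highest sum in mural libraries in all 3 brains and the two-pore subunits in microglia. For the inward rectifiers the highest sum was neural in the first and the third brain and mural in the second (Mu-343), through *Kcnj10*. The potassium genes left out by the rule, among them the inward rectifier *Kcnj8*, are in none of these sums.

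**Figure D2:**
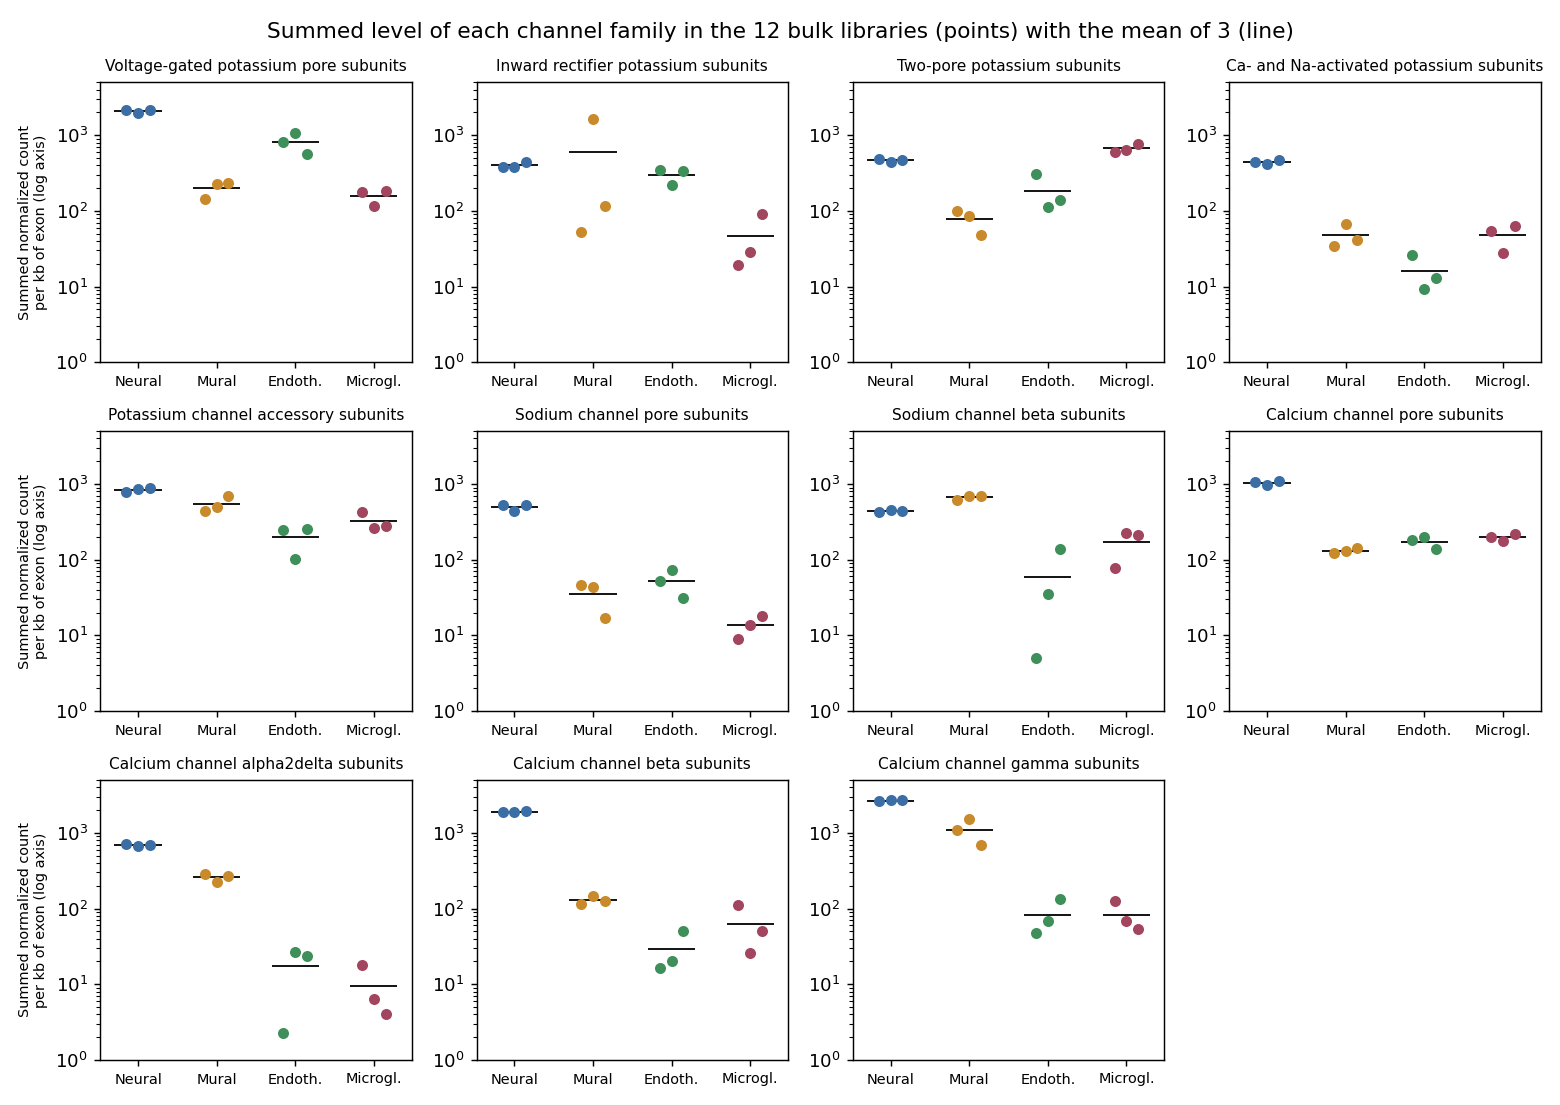
Summed level of the 11 channel families, in normalized counts per kb of exon on a log axis, for each bulk library (points, in the order of the 3 brains) with the mean of 3 (line). Neural libraries lead 8 of the families, mural libraries the sodium channel beta subunits at 668 ± 50.7 per kb, and microglia the two-pore potassium subunits.

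Of the voltage-gated potassium pore subunits, 28 of 31 tested genes were higher in neural cells (32.9% of all genes), 25 of them over 10-fold (13.8% of all genes), and *Kcnq1* was lower. *Kcnq3* encodes a subunit of the M-current, which holds back repetitive firing. For *Kcnq3*, neural libraries held 1943, 1764 and 2383 normalized counts, mural libraries 0 in all 3, endothelial 3.54, 1.42 and 0 and microglia 2.38, 4.74 and 13.8. The neural values lay above all 9 others, with a log2 difference of 9.68 ± 0.60 (SE), adjusted p = 2e-07. Neural *Kcnq3* was at least 806-fold higher than mural *Kcnq3*, taking 3 reads per library as the limit of detection.

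*Kcnq5*, of the same family, was low, at 64.2 ± 6.76 in neural and 33.1 ± 29.5 in mural libraries (SD, n = 3). It was called higher in neural cells (3.81 ± 0.89 (SE), adjusted p = 0.00324), and mural library Mu-346 with 65.7 lay within the neural range of 56.5 to 69.2. *Kcnc1*, a subunit of the fast delayed rectifier of fast-spiking neurons, held 1270.0, 1163 and 1257 in neural libraries and at most 56.9 elsewhere (8.13 ± 1.42 (SE), adjusted p = 0.00048). *Kcnh2*, the ERG channel that repolarizes the heart, held 901, 901 and 939 in neural libraries and 314, 0 and 0 in endothelial ones, 0 in all mural ones and 0, 0 and 5.04 in microglia, so that outside neural cells it was high in a single endothelial library (8.63 ± 1.49 (SE), adjusted p = 0.00047 for neural cells). *Kcna3*, a channel also known from lymphocytes, was at 277 ± 27.3 in neural and 43.6 ± 74.1 in endothelial libraries and was higher in neural cells (5.45 ± 1.20 (SE), adjusted p = 0.00225).

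*Kcnd2*, which carries the A-type current of dendrites, was shared by neural and mural libraries and listed at 0 in all 3 endothelial ones. Neural libraries held 477, 418 and 373 and mural libraries 203, 532 and 72.3, so that the ranges overlapped, and it was called higher in both (6.05 ± 0.60 (SE), adjusted p = 8.2e-06, and 4.61 ± 0.60 (SE), adjusted p = 0.00016). Its auxiliary subunit *Kcnip4* was low, at 32.1 ± 3.503 in neural and 12.9 ± 3.88 in mural libraries, and was called in neural cells (3.36 ± 0.75 (SE), adjusted p = 0.0025). *Kcnip4* shares 168 exon bases with 5730480H06Rik on the opposite strand, which had means between 308 and 601 normalized counts in the 4 populations, and the strand setting of the counting is not given in the sources used here.

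Sodium channel pore subunits were higher in neural cells for 7 of 8 tested genes (32.9% of all genes), each over 10-fold (13.8%). *Scn3a*, the pore subunit typical of the embryonic brain, was the leading one with 3519, 2964 and 3415 in neural libraries, 412, 210.0 and 33.8 in mural, 77.96, 52.5 and 4.52 in endothelial and 4.75, 20.2 and 62.9 in microglia (6.24 ± 0.98 (SE), adjusted p = 0.00023). Per kb of exon, *Scn3a* stood at 265 in neural libraries, *Scn8a* at 112, *Scn2a* at 49.2, *Scn1a* at 32.3 and *Scn9a* at 18.5. *Scn8a*, which encodes the channel of mature nodes and axon initial segments, had a second site in endothelial cells. Its libraries held 1773, 1483 and 2022 in neural, 441, 670.0 and 424 in endothelial, 41.9, 63.9 and 55.4 in mural and 28.5, 30.8 and 35.3 in microglial cells. The endothelial values all exceeded the mural and microglial ones, and *Scn8a* was called higher in endothelial as well as neural cells (1.79 ± 0.27 (SE), adjusted p = 0.00041, and 4.19 ± 0.27 (SE), adjusted p = 2.8e-07).

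*Scn2a*, the early channel of axons, held 662, 588 and 628 in neural libraries, and outside them between 0 and 319 in single libraries (4.25 ± 1.11 (SE), adjusted p = 0.0061). *Scn1a*, the channel of interneurons whose loss causes epilepsy, was at 360.2 ± 17.1 in neural libraries (6.26 ± 0.99 (SE), adjusted p = 0.00025), and *Scn9a*, best known from nociceptors, at 236 ± 32.3 (7.14 ± 0.73 (SE), adjusted p = 9.7e-06).

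Sodium channel beta subunits modulate gating and act as adhesion molecules. *Scn3b* was neural, with 2042, 2218 and 2121 in neural libraries and 0, 151 and 0.939, 1.77, 0 and 106 and 141, 8.301 and 30.2 in mural, endothelial and microglial ones (7.53 ± 1.67 (SE), adjusted p = 0.00234). *Scn2b* was mural, as described with that population. *Scn4b* had at most 15.3 normalized counts, in a neural library, was at 0 in the 9 libraries of other populations, and was not tested.

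Calcium channel pore subunits were higher in neural cells for 8 of 9 tested genes (32.9% of all genes), 5 of them over 10-fold (13.8%). The T-type subunits *Cacna1g* and *Cacna1h*, which open near the resting potential, led. *Cacna1g* held 2695, 2486 and 2833 in neural libraries and at most 48.8 elsewhere (8.47 ± 0.87 (SE), adjusted p = 1e-05). *Cacna1h* held 3318, 3038 and 3371 in neural and 425, 539 and 663 in mural libraries, 0 in all 3 endothelial ones and 24.96, 1.19 and 8.81 in microglia. It was called higher in both neural (7.63 ± 0.62 (SE), adjusted p = 1.7e-06) and mural cells (4.16 ± 0.62 (SE), adjusted p = 0.00037), with neural libraries 5.98-fold above mural ones. *Cacna1b*, the N-type channel of presynaptic terminals, held 1874, 1736 and 1964 in neural libraries and at most 78.6 elsewhere (8.12 ± 1.08 (SE), adjusted p = 7.3e-05). *Cacna1a*, the P/Q-type channel, was less restricted, with 1193, 1111 and 1263 in neural, 996, 839 and 333 in endothelial, 348, 253 and 302 in microglial and 48.9, 204 and 214 in mural libraries (2.01 ± 0.46 (SE), adjusted p = 0.00272 for neural cells). *Cacna1c*, the L-type channel of heart and smooth muscle, was called in neural and mural cells, with 1089.7, 949.7 and 1333 and 646, 419 and 543 (4.42 ± 1.09 (SE), adjusted p = 0.00452, and 2.98 ± 1.09 (SE), adjusted p = 0.0478). The mural call was lost with brain as a replicate block, at 2.98 (adjusted p = 0.0695). It was also lost without any 1 mural library, at differences from 2.84 to 3.15 with adjusted p from 0.0994 to 0.13.

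Of the subunits that accompany the calcium pore, all 4 beta subunits were called higher in neural cells, and so were the 3 tested alpha2delta and the 6 tested gamma subunits (32.9% of all genes). *Cacnb2* was called higher in mural cells too, with 193, 159 and 279.9 in mural and 182, 203 and 183 in neural libraries, so that the ranges overlapped. Its neural call was lost without any 1 neural library (adjusted p from 0.0928 to 0.102) and its mural call without any 1 mural library (adjusted p from 0.0773 to 0.122). *Cacnb3* held 5104, 5156 and 5287 in neural libraries and between 36.8 and 389 elsewhere, 14.7-fold above the mural mean (5.17 ± 0.50 (SE), adjusted p = 6.7e-06). *Cacnb1* stood at 2340.4 ± 125 in neural and 113 ± 73.3 in microglial libraries (6.66 ± 0.77 (SE), adjusted p = 2.5e-05), and *Cacnb4*, at 822 ± 35.1, was also called (5.49 ± 1.19 (SE), adjusted p = 0.00205). *Cacng7*, which belongs to the branch of gamma subunits that regulates AMPA receptors, had the highest level per kb of any channel gene in neural libraries (1368). Its neural libraries held 3141, 3352 and 3528, mural 1.75, 4.57 and 1.88, endothelial 0, 18.5 and 7.54 and microglia 0 in all 3 (10.28 ± 0.77 (SE), adjusted p = 8.7e-07). *Cacna2d2* and *Cacna2d3* held 2635, 2453 and 2374 and 686, 714 and 682 in neural libraries and at most 39.7 and 6.29 in any other (7.80 ± 0.93 (SE), adjusted p = 3.1e-05, and 8.58 ± 0.71 (SE), adjusted p = 2e-06). *Cacna2d1*, the target of gabapentin, had neighbouring levels in neural and mural cells, with 3809, 3405 and 3796 and 3523, 2789.5 and 3327 and at most 254 in endothelial and 171 in microglial libraries (3.95 ± 0.89 (SE), adjusted p = 0.00257, and 3.69 ± 0.89 (SE), adjusted p = 0.00678).

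Among two-pore channels, *Kcnk2*, the mechanosensitive TREK-1, held 789, 758 and 844 in neural libraries and ranged from 5.68 to 369 in endothelial ones (5.11 ± 1.27 (SE), adjusted p = 0.00471 for neural cells). *Kcnk2* shares 604 exon bases with the antisense gene A430027H14Rik, whose mean was at most 43.7 in any population. The calcium-activated BK channel pore gene *Kcnma1* held 410.0, 354 and 427 in neural libraries, 61.8, 16.6 and 85.6 in microglia, 0 in all 3 mural libraries and at most 1.77 in endothelial ones. It was higher in neural cells (6.63 ± 0.58 (SE), adjusted p = 3e-06) and in microglia (2.47 ± 0.58 (SE), adjusted p = 0.00513).

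Mural cells are the pericytes and smooth muscle cells of vessels. Of 13 tested potassium channel accessory subunits, 4 were higher in mural cells and 1 was lower (19.3% and 22.7% of all genes). The higher ones were *Kcnmb1*, *Kcnmb2*, *Kcnmb3* and *Kcnab1*, and *Kcnmb3* and *Kcnab1* were called higher in endothelial cells too. *Kcnmb1*, the beta1 subunit that raises the calcium sensitivity of BK channels in smooth muscle, held 647, 1083 and 977 in mural libraries, 0, 1.66 and 1.59 in neural, 0 in all 3 endothelial and 11.9, 14.2 and 0 in microglial ones. Mural libraries were 104-fold above microglia and at least 192-fold above endothelial ones, the difference from the other 3 was 8.63 ± 0.78 (SE), adjusted p = 1.3e-05, and without the neural libraries it was 8.52 ± 0.94 (SE), adjusted p = 0.00023. The mural libraries thus held the BK beta1 subunit while its pore gene *Kcnma1* was at 0 in each of them. *Kcnmb2*, another BK accessory subunit, held 199, 78.8 and 118 in mural libraries, 74.8, 74.8 and 72.4 in neural ones and 0 in the other 6 (4.88 ± 0.43 (SE), adjusted p = 1e-05). *Kcnmb1* lies at chr11:33963013-33973641 (GRCm38) on the plus strand, within the span of *Kcnip1* on the minus strand, but shares no exon base with it.

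*Scn2b* encodes a sodium channel beta subunit. Its mural libraries held 2840.1, 3137 and 3139, neural 192, 157 and 166, endothelial 0, 99.4 and 0 and microglial 3.57, 0 and 1.26 normalized counts, so that every mural library lay above every other one. The mural mean was 17.7-fold above the neural mean (7.98 ± 1.20 (SE), adjusted p = 0.00039, and 9.90 ± 1.42 with adjusted p = 0.00092 without neural libraries). *Scn2b* made up 97.6% of the sodium channel beta level per kb of mural libraries, in which the sodium pore subunits summed to 35.7 ± 16.3 per kb. *Scn2b* lies at chr9:45117782-45130070 and is followed by *Scn4b* on the same strand, which was at 0 in all mural libraries.

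*Cacng4* and *Cacna2d1* were high in mural and neural cells alike. *Cacng4*, another AMPA receptor regulatory gamma subunit, held 3771, 5428 and 2428 in mural, 3429, 3487 and 3387 in neural, 167, 186 and 252 in endothelial and 365, 211 and 167 in microglial libraries. The mural range contained the neural one, and *Cacng4* was called higher in both (2.76 ± 0.28 (SE), adjusted p = 2.6e-05, and 2.62 ± 0.28 (SE), adjusted p = 1.3e-05). The mural mean of *Cacng4* was 1.13-fold the neural one, and the neural mean of *Cacna2d1* was 1.14-fold the mural one. Mural libraries also held the neural markers given above, fibroblast markers, at summed levels of 3565 to 4954, and smooth muscle markers, at 716 to 1109, and their part in the mural results was not tested. The fibroblast sum was led by *Col1a2* (3469), and *Col1a1*, *Dcn* and *Lum* were also highest in mural libraries. *Pdgfra* was not, at 0.313 in mural and 151 in neural libraries. The smooth muscle sum was led by *Acta2* (818), and *Myh11* was also highest in mural libraries. *Tagln* was at 44.5 in mural and 41.9 in neural libraries, and *Cnn1* at 5.08 in mural and 20.8 in endothelial ones. Among the mural, endothelial and microglial libraries alone, 17 of 77 tested channel genes were higher in mural cells (13.3% of all genes), of which 15 were over 10-fold higher (5.58% of all genes), and 15 were lower (15.8%). The 17 became 11 without Mu-343 or without Mu-346. The 3 with the largest differences were *Scn2b*, *Kcnmb1* and *Cacna1h* (7.54 ± 0.85 (SE), adjusted p = 0.00024).

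The inward rectifiers followed here leave out *Kcnj8* by the rule. Among them *Kcnj10*, the inward rectifier of astrocytes (Kir4.1), had the highest mural mean, but through 1 library. Mural libraries held 0.437, 8639 and 25.4, neural libraries 525, 536 and 658, endothelial libraries 0 and microglia 8.32, 3.56 and 39.03. Its mural difference was 1.86 ± 1.94 (SE), adjusted p = 0.468, and without library Mu-343 it was -1.62 (adjusted p = 0.259). With edgeR on the recovered reads it was called, at 8.20 (adjusted p = 0.0107). In neural cells it was called (5.93 ± 1.94 (SE), adjusted p = 0.0198), but not with edgeR on the recovered reads, at 5.09 (adjusted p = 0.0594), nor without any 1 neural library, with adjusted p from 0.058 to 0.0645. *Kcnk3* (TASK-1) held 70.8, 258 and 77.96 in mural libraries and 65.4, 40.98 and 48.3 in neural ones (4.12 ± 0.79 (SE), adjusted p = 0.00177).

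*Kcnmb1* and *Scn2b* are shown here with the 250 bases before and 50 bases after their start (RefSeq, GRCm38.p6, 5′ to 3′ on the strand of the gene), because they were the most mural of the channel genes followed. Capitals mark a GC box (GGGCGG on either strand), and neither window holds one.
*Kcnmb1*, chr11:33962763-33963062, plus strand: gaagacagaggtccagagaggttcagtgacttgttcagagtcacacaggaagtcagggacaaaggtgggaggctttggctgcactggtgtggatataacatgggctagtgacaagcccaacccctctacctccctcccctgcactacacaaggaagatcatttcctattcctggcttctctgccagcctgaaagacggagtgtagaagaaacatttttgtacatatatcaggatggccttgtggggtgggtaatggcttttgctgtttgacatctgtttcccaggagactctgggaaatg
*Scn2b*, chr9:45117626-45117925, plus strand: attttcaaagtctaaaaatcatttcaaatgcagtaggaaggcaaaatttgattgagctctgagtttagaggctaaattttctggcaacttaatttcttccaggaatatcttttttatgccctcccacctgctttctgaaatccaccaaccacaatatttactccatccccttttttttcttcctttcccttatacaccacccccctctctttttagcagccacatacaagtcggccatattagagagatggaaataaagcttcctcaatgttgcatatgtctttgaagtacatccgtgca
A window was given for 96 of the 130 genes, some with several starts, in 131 windows, and 45.8% of them held a GC box, against 35.7% of all 32851 windows of that length.

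Potassium channel genes led the endothelial levels per kb. *Kcnq1*, the pore of the slow delayed rectifier of the heart and of epithelia, held 1053, 1532 and 1347 in endothelial libraries, 0, 0.554 and 1.59 in neural, 0 in all 3 mural and 0, 21.3 and 6.29 in microglial ones. It was 142-fold above microglia and at least 520.5-fold above mural cells, and the difference was 9.30 ± 0.79 (SE), adjusted p = 7.8e-06. *Kcnq1* was the channel gene with the highest endothelial level per kb (320.1). It lies at chr7:143106362-143427042 and shares 121 exon bases with the antisense RNA *Kcnq1ot1*. The mean of *Kcnq1ot1* was 182 in neural, 4813 in mural, 5215 in endothelial and 17143 in microglial libraries. Any part of its reads in the *Kcnq1* counts was not tested.

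*Kcna5* and *Kcna6*, 2 Shaker-type delayed rectifiers, are neighbours on chromosome 6 with *Kcna1* between them. *Kcna5* held 576, 461 and 122 in endothelial and 26.7, 17.2 and 21.4 in neural libraries and 0 in the 6 mural and microglial ones (6.83 ± 0.52 (SE), adjusted p = 3.6e-06). *Kcna6* held 652, 1496 and 406 in endothelial, 294, 307 and 337 in neural, 16.6, 0 and 0.939 in mural libraries and 0 in all 3 microglial ones (6.19 ± 0.78 (SE), adjusted p = 0.00012). Between them, *Kcna1* was at 0 in all endothelial libraries and held 92.1, 98.02 and 129 in neural ones. Among endothelial libraries *Kcna5* was lowest in Ec-346 and *Kcna6* highest in Ec-343, yet all 3 endothelial values lay above every other library for both. Both were also called higher in neural cells (1.71 ± 0.52 (SE), adjusted p = 0.014, and 4.55 ± 0.78 (SE), adjusted p = 0.00045), though the call of *Kcna5* was lost with a pseudocount of 5, at 0.40 (adjusted p = 0.435), without N-340, at 1.56 (adjusted p = 0.0699), and without N-346, at 1.71 (adjusted p = 0.0527). *Kcna6* shares 2355 exon bases with the antisense gene Gm26673, whose mean was at most 0.352 in any population. Their windows from 250 bases before to 50 after the start (RefSeq, GRCm38.p6) are printed since both genes of this pair were called higher in endothelial cells. Capitals mark a GC box, which neither holds.
*Kcna5*, chr6:126535506-126535805, minus strand: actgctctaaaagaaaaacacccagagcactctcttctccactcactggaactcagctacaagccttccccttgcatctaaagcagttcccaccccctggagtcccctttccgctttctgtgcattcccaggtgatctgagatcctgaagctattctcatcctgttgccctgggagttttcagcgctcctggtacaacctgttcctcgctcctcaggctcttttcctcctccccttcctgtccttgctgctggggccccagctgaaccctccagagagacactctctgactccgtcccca
*Kcna6*, chr6:126740625-126740924, minus strand: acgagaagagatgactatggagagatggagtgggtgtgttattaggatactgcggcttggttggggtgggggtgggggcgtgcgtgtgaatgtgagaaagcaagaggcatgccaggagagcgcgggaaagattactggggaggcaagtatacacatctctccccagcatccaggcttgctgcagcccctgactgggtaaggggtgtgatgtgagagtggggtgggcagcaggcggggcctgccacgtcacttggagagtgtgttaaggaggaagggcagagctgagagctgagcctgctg

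Inward rectifiers were higher in endothelial cells for 5 of 10 tested genes and lower for the other 5 (19.7% and 22.4% of all genes), with a median log2 difference of 0.29. *Kcnj2* (Kir2.1), which hyperpolarizes brain capillaries when potassium rises around them, held 590.0, 501 and 876 in endothelial, 92.7, 72.3 and 269 in microglial, 17.9, 36.5 and 0 in mural and 20.03, 14.95 and 14.53 in neural libraries. Endothelial levels were 4.53-fold above microglia and 39.7-fold above neural cells (4.58 ± 0.92 (SE), adjusted p = 0.00255). *Kcnj15* was in 2 of 3 mural libraries as well, with 149, 388 and 161 in endothelial and 0, 122 and 73.3 in mural libraries and 0 in the other 6 (6.26 ± 1.18 (SE), adjusted p = 0.00167). *Kcnj1*, the ROMK channel of the kidney, held 33.7, 129 and 34.7 in endothelial libraries, 1.19, 0 and 7.55 in microglial ones and 0 in the other 6 (5.30 ± 0.63 (SE), adjusted p = 8.4e-05). *Kcng2*, a silent subunit that joins other Kv pores, held 455, 334 and 107 (6.58 ± 0.66 (SE), adjusted p = 2.6e-05) and *Kcnk7*, a two-pore subunit without known current, 273, 155 and 107 (4.20 ± 0.97 (SE), adjusted p = 0.00556). The call of *Kcnk7* was lost without the neural libraries, at 3.02 ± 1.11 (SE), adjusted p = 0.0793.

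*Cacna1e*, the R-type calcium channel of neurons, was the leading calcium pore gene of endothelial cells. Endothelial libraries held 2082, 3042 and 2695, neural 1060.3, 846 and 1226, mural 282, 258 and 198 and microglial 11.9, 4.74 and 35.3 normalized counts. The endothelial mean was 2.497-fold above the neural and 10.6-fold above the mural mean, with no overlap between the endothelial libraries and any other (4.08 ± 0.44 (SE), adjusted p = 4.5e-05). It was also called higher in neural cells (2.33 ± 0.44 (SE), adjusted p = 0.00092). With neural libraries left out, 13 of 77 tested channel genes were higher in endothelial cells (11.7% of all genes), 11 of them over 10-fold (5.41%), and 14 were lower (12.2%). The largest differences were those of *Kcnq1* (9.11 ± 0.95 (SE), adjusted p = 0.00019), *Kcna6* (8.67 ± 0.99 (SE), adjusted p = 0.0003) and *Kcna5* (8.32 ± 0.74 (SE), adjusted p = 7.9e-05).

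In microglia, the resident macrophages of the brain, 3 of 9 tested two-pore channel genes were higher and 2 lower (23.4% and 22.3% of all genes), with a median log2 difference of -0.13. *Kcnk13* (THIK-1), which sets the resting potential of microglia and governs their surveillance, held 962, 1112 and 1341 in microglial, 16.02, 9.97 and 11.6 in neural, 0, 0 and 29.1 in mural and 0 in all endothelial libraries. It had the highest level per kb of all channel genes in microglia (366) and stood 90.8-fold above neural cells (8.35 ± 0.91 (SE), adjusted p = 2.6e-05). *Kcnk6* (TWIK-2), a potassium efflux channel of macrophages, held 622, 690.2 and 768 in microglial and 53.2, 29.8 and 33.2 in endothelial libraries and at most 7.86 in any other (7.06 ± 0.70 (SE), adjusted p = 1.2e-05). *Kcnk12* (THIK-2), the closest relative of *Kcnk13*, held 242, 166 and 138 in microglial, 10.7, 6.65 and 13.5 in neural and 0 in the 6 vascular libraries (6.33 ± 0.40 (SE), adjusted p = 3.6e-07). Against the mural and endothelial libraries alone, these genes had the 3 largest microglial differences, at 9.32 ± 1.11 (SE), adjusted p = 0.0002 for *Kcnk13*, 7.48 ± 0.64 (SE), adjusted p = 2.5e-05 for *Kcnk12* and 6.28 ± 0.81 (SE), adjusted p = 0.00032 for *Kcnk6*. In that comparison 11 of 77 channel genes were higher in microglia (16.4% of all genes), 9 of them over 10-fold (7.67%), and 17 were lower (14.7%). The 11 became 7 without Mu-340, Mu-343 or Mi-343.

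*Kcnk12* and *Kcnk13* lie on different chromosomes, and their windows from 250 bases before to 50 after the start (RefSeq, GRCm38.p6) are printed since both genes of this closely related pair were called higher in microglia. Capitals mark a GC box (GGGCGG on either strand), which the *Kcnk12* window holds once and the *Kcnk13* window not at all.
*Kcnk12*, chr17:87797945-87798244, minus strand: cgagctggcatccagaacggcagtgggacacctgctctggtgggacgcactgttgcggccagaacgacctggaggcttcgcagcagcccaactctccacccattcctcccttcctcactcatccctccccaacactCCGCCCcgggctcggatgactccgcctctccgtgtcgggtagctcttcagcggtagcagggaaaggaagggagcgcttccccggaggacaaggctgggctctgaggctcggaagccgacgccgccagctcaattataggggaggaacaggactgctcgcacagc
*Kcnk13*, chr12:99964249-99964548, plus strand: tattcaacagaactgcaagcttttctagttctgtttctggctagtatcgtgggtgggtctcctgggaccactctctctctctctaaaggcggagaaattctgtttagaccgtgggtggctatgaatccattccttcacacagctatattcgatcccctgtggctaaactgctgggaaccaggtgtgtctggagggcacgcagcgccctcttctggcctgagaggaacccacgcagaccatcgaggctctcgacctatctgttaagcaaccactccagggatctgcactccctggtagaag
The share of bases that are G or C is 64.3% in the first and 52.7% in the second.

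*Kcnn4*, the intermediate-conductance calcium-activated channel of immune cells, held 122, 88.9 and 268 in microglia, 1.77, 0 and 46.8 in endothelial, 5.34, 2.22 and 3.17 in neural libraries and 0 in all mural ones (5.67 ± 0.95 (SE), adjusted p = 0.00058). *Cacna1d*, an L-type calcium channel that opens at low voltage, had 1 of the 6 highest microglial levels per kb (157), with 2022, 1718 and 2203 in microglia against 477, 383 and 505 in neural, 312, 354 and 205 in mural and 8.86, 1.42 and 1.51 in endothelial libraries. It was called in microglia and, less far from the mean of the others, in neural cells (4.63 ± 0.43 (SE), adjusted p = 7.1e-06, and 1.80 ± 0.43 (SE), adjusted p = 0.00361). *Cacna1d* shares 589 exon bases with *Chdh* on the opposite strand, whose own highest mean was in microglia, at 410.2 normalized counts. *Kcnd1*, an A-type pore subunit, held 625, 295 and 497 in microglia and 176, 206 and 219.5 in neural libraries (3.23 ± 0.61 (SE), adjusted p = 0.00138). *Kcnab2*, the beta subunit that binds Shaker-type pores, held 949, 532 and 244 in microglia and 527, 522 and 497 in neural libraries and was called in neither (adjusted p = 0.105 and 0.0769). Without library Ec-346 it was called in microglia, at 4.34 (adjusted p = 0.00601). Microglial libraries also held border macrophage markers, at summed levels of 8295 to 10911, and platelet markers, at 656 to 1269, and their part in these results was not tested.

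**Figure D3:**
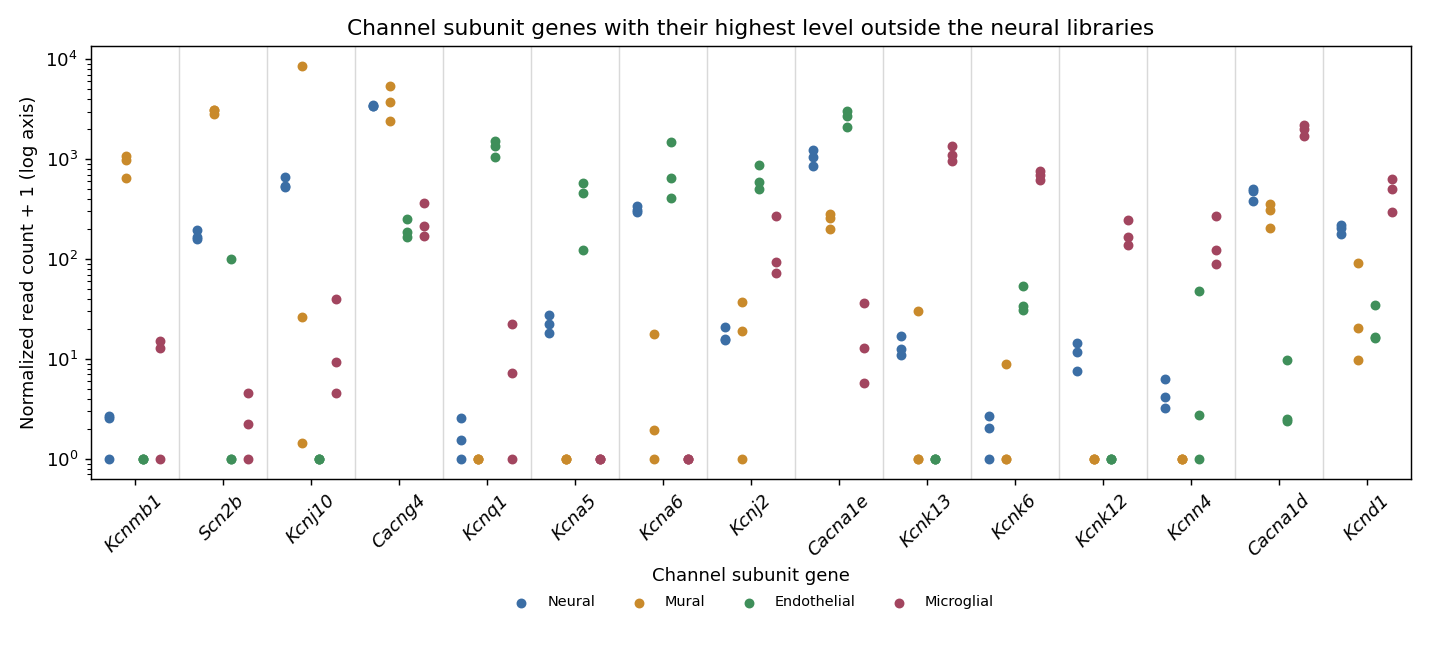
Normalized read count + 1 (log axis) of 15 channel subunit genes with their highest mean outside neural cells, with 1 point per library and 3 libraries per population. The 3 endothelial points of *Kcnq1* and the 3 microglial points of *Kcnk13* lie far above the rest, while the mural points of *Kcnj10* spread from 0.437 to 8639 normalized counts.

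Single cells gave a second view in which every gate had the same chemistry. Of 994 wells with 1 of the 4 gates, 686 held more than 1500 transcripts (123 neural, 210 mural, 225 endothelial and 128 microglial), with median depths of 7717, 6885, 6408 and 10761 transcripts. Of the 130 genes, 107 were in the single-cell tables. Transcripts were summed per plate and gate, and edgeR's quasi-likelihood test set 1 gate against the mean of the other 3, and 21 channel genes had enough counts to be tested. The study does not state which brain a plate holds, and p-values measure the spread between plates. Of these 21 genes, 15 were higher in the neural gate, against 22.5% of all 9281 genes tested, 4 in the mural (13.5%), 4 in the endothelial (16.4%) and 3 in the microglial gate (22.2%). Over 10-fold higher were 11 in the neural (5.16% of all genes), 2 in the mural (2.96%), 1 in the endothelial (3.02%) and 3 in the microglial gate (4.61%). In the neural gate 0 of the 21 were lower (17.3% of all genes), in the mural 1 (8.30%), in the endothelial 1 (6.96%) and in the microglial gate 13 (21.2%). Plate 3 held 14 neural, 10 mural, 13 endothelial and 6 microglial cells. Without plate 1 the counts of higher genes were 7, 1, 1 and 2 of 10 tested, without plate 2 they were 6, 1, 1 and 2 of 9, and without plate 3 they were 25, 9, 5 and 3 of 35. Of the 19 genes called higher in neural bulk libraries and tested in cells, 15 were called in the neural gate too, and 18 had a positive difference, the exception being *Kcnd1*. All 3 mural, all 3 endothelial and all 3 microglial bulk calls that could be tested were called in the same gate. The share of such agreement over all genes was not computed. A gene with enough counts in a single gate could be tested, so agreement was favoured in advance. The mural call of *Cacng4* and the endothelial call of *Scn8a* were lost in some alternatives, as given below.

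No channel gene was found in most cells of a gate. A transcript of *Cacng4* was found in 58 of 123 neural cells, or 47.2% (38.1 to 56.4) (exact 95% interval), against 18.1% of mural, 8% of endothelial and 7.03% of microglial cells. *Scn3a* was found in 49 of 123 neural cells, or 39.8% (31.1 to 49.1), and in 9.05% of mural, 1.78% of endothelial and 3.91% of microglial cells. These intervals, and the limits that counts of 0 allow, cover counting error only, and they limit the share of cells with a transcript, not of cells that express the gene. With all cells thinned to 1500 transcripts the neural shares fell to 15.4% and 17.9% and remained the highest. Scaled to a common depth as CPM, *Scn3a* reached 162, 135 and 142 CPM on plates 1, 2 and 3 in neural cells and 7.92, 17.7 and 13.7 in mural cells, with a log2 difference of 4.08 ± 0.32 (SE), adjusted p = 2.9e-16. *Cacnb3* was called in the neural and the mural gate, with 39.02% and 13.3% of cells (4.14 ± 0.42 (SE), adjusted p = 1.4e-12, and 1.41 ± 0.53 (SE), adjusted p = 0.0468). Its mural call was lost with DESeq2, at 1.28 (adjusted p = 0.366), and without plate 1 or plate 2 (adjusted p = 0.0607 and 0.341).

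In the mural gate *Cacng4* was called at 1.09 ± 0.32 (SE), adjusted p = 0.00874, and the call was lost with DESeq2, at 0.79 (adjusted p = 0.547), and without plate 1 or plate 2. *Cacna2d1* was found in 74 of 210 mural cells, or 35.2% (28.8 to 42.1), and in 37 of 123 neural cells, or 30.1% (22.1 to 39.00). It was called in both gates (3.40 ± 0.47 (SE), adjusted p = 3.7e-08, and 4.04 ± 0.45 (SE), adjusted p = 4.4e-11). *Cacna1h* had the reverse order of the bulk libraries, with 40 of 210 mural cells, or 19.05% (13.97 to 25.02), and 12 of 123 neural cells, or 9.76% (5.14 to 16.4). The pooled level was 47.1 CPM in mural and 13.5 CPM in neural cells, and both gates were called (4.63 ± 0.55 (SE), adjusted p = 5e-10, and 2.29 ± 0.78 (SE), adjusted p = 0.0146), the neural one not with DESeq2, at 1.58 (adjusted p = 0.279). *Kcnmb1* and *Scn2b* did not pass the filter on low counts. *Kcnmb1* was found in 33 of 210 mural cells, or 15.7% (11.1 to 21.4), and in 0.813% of neural cells, and *Scn2b* in 28 of 210 mural cells, or 13.3% (9.05 to 18.7), and in 0.813% of neural cells. In the fit without that filter, which called 7.90% of all 21377 genes higher in the mural and 9.54% in the endothelial gate, both were higher in the mural gate (5.18 ± 0.67 (SE), adjusted p = 4.5e-13, and 4.06 ± 0.69 (SE), adjusted p = 1.8e-07). *Cacna1c* was called in the mural gate of that fit (2.90 ± 0.57 (SE), adjusted p = 1.2e-05) but not in the neural gate (1.02 ± 0.71 (SE), adjusted p = 0.37). *Kcnj10* was found in 1 of 210 mural cells, or 0.476% (0.0121 to 2.62), beside the single mural bulk library that held it at a high level.

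In the endothelial gate *Kcna6* was found in 47 of 225 endothelial cells, or 20.9% (15.8 to 26.8), and in 6 of 123 neural cells, or 4.88% (1.81 to 10.3), and *Cacna1e* in 44 of 225 endothelial cells, or 19.6% (14.6 to 25.3), and in 7 of 123 neural cells, or 5.69% (2.32 to 11.4). Both were called in endothelial cells (4.35 ± 0.55 (SE), adjusted p = 2.6e-09, and 3.09 ± 0.46 (SE), adjusted p = 1.8e-07) and neither in neural cells (adjusted p = 0.307 and 0.211). *Scn8a*, the neuronal sodium channel, was found in 29 of 225 endothelial cells, or 12.9% (8.805 to 17.98), and in 38 of 123 neural cells, or 30.9% (22.9 to 39.9), against 0.952% of mural cells, and was called in both gates (1.68 ± 0.49 (SE), adjusted p = 0.00653, and 3.52 ± 0.43 (SE), adjusted p = 8.1e-10). The endothelial call of *Scn8a* was lost with DESeq2, at 1.70 (adjusted p = 0.0962), without plate 1, at 2.06 (adjusted p = 0.179), and without plate 2, at 2.02 (adjusted p = 0.0892). *Kcnj2* was the channel gene found in the largest share of endothelial cells, 81 of 225 endothelial cells, or 36% (29.7 to 42.6), against 7.81% of microglial and 0.813% of neural cells (4.61 ± 0.42 (SE), adjusted p = 9.2e-26 in the fit without the filter). *Kcnq1* was sparse in the same gate, with 13 of 225 endothelial cells, or 5.78% (3.11 to 9.68), against 1.43% of mural cells (3.29 ± 0.84 (SE), adjusted p = 0.00129 in that fit).

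In the microglial gate *Kcnk13* was found in 40 of 128 microglial cells, or 31.2% (23.4 to 40.04), *Kcnk6* in 38 of 128 microglial cells, or 29.7% (21.9 to 38.4), and *Kcnd1* in 33 of 128 microglial cells, or 25.8% (18.5 to 34.3). *Kcnk13* was found in 0 of 123 neural cells, which allows up to 2.44% of cells with a transcript, and in 0.444% of endothelial cells. All 3 were called (6.96 ± 0.64 (SE), adjusted p = 1.1e-13, 5.83 ± 0.62 (SE), adjusted p = 1.4e-11, and 4.60 ± 0.55 (SE), adjusted p = 2.6e-10). *Kcnk6* was also called in the endothelial gate, with 8 of 225 endothelial cells, or 3.56% (1.55 to 6.89) (2.25 ± 0.84 (SE), adjusted p = 0.044), and that call was lost with DESeq2, at 1.85 (adjusted p = 0.295), without any 1 plate, in cells over 3000 transcripts and without the filter on low counts. *Kcnk12* was found in 0 of 128 microglial cells, which allows up to 2.34% of cells with a transcript. Its bulk level per kb in microglia was 92.5, beside 366 for *Kcnk13*. *Cacna1d* was found in 19 of 128 microglial cells, or 14.8% (9.18 to 22.2), and in 4.88% of neural cells (2.15 ± 0.53 (SE), adjusted p = 0.00042 without the filter, where 11.6% of all genes were called higher in microglia).

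**Figure D4:**
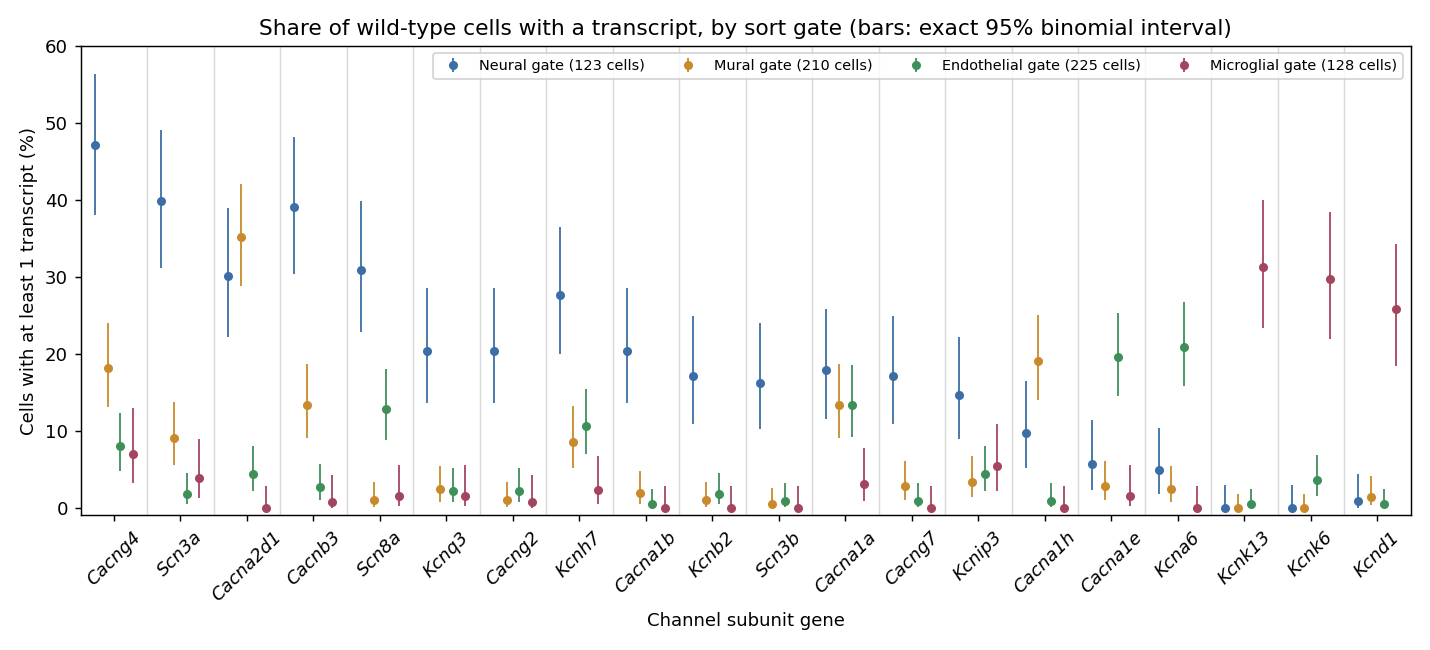
Percent of wild-type cells with at least 1 transcript of 20 channel genes tested in single cells, by sort gate, with exact 95% binomial intervals (counting error only). *Cacng4* reaches 47.2% of neural cells, *Cacna2d1* is found in both neural and mural cells, and *Kcnk13*, *Kcnk6* and *Kcnd1* are found mainly in microglia.

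Neighbouring channel genes were alike in some places and not in others. Counting genes no more than 500 kb apart, 53 of the 130 genes fell into 22 groups. Of these groups, 14 held at least 2 tested genes, and in 7 of them the tested genes had their highest means in the same population, which was neural in 5. Of all 104 tested channel genes, 71 were highest in neural libraries. *Cacna2d3* and *Cacna1d* on chromosome 14, *Kcnj5* and *Kcnj1* on chromosome 9 and *Kcnip1* and *Kcnmb1* on chromosome 11 each had their highest means in different populations. *Kcnj5* held 116, 108 and 95.9 in neural libraries and 0 in the other 9, while *Kcnj1* beside it was at 0 in all neural libraries.

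Of 32 genes whose products join, anchor or regulate these channels, 28 were tested in bulk, of which 22 were higher and 4 lower in neural cells (32.9% and 31.2% of all genes). In mural cells 4 were higher and 10 lower (19.3% and 22.7% of all genes), in endothelial cells 3 and 14 (19.7% and 22.4%) and in microglia 3 and 14 (23.4% and 22.3%). Among the 4 that were lower in neural cells were *Abcc9*, the sulfonylurea receptor of vascular potassium channels, and *Rest*, the repressor of neuronal genes, which had means of 932 normalized counts in neural, 3309 in mural, 5393 in endothelial and 2518 in microglial libraries. The core of the sequence that REST binds (TTCAGCACC on either strand) was in 1 of the 131 promoter windows of channel genes, that of *Kcnh6*, and in 0.371% of all windows.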

How the data were processed

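Bulk RNA-seq of 12 libraries and mCEL-Seq2 of wild-type cells on 3 plates were used. The authors deposited bulk values as normalized counts, a linear signal that proved to be reads scaled by a single factor per library. All 124078 values of up to 100 reads (100%) were whole reads within 0.01. The submitters' processing notes name mm10, BWA 0.6.2-r126, STAR, featureCounts and DESeq2, with no role. For single cells the authors deposited transcript counts corrected for identifiers drawn more than once (from a pool of 4096), which are expected counts and were rounded after summing. Cells needed more than 1500 transcripts. No doublet caller was run, as wells hold 1 sorted cell, no 2 kept cells had the same profile, and 0 spike-in rows were present. Barcode sequences were not used here, and the *Mof* knockout plates were not used because their sort markers were empty.

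limma 3.58.1 (R 4.3.3) was run with a trend on log2(normalized count + 1) for genes with a mean of at least 10, so fold changes of low genes are understated. edgeR 4.0.16 (quasi-likelihood, TMM) was run on sums per plate and gate after its filter on low counts, and DESeq2 1.42.0 as an alternative. Tests were two-sided. SE of edgeR differences were taken as the difference divided by the square root of F. Methods were tested on simulated data. Exon lengths and coordinates came from GENCODE vM21 (GRCm38), with ids matched to symbols there. *Scn2a* was listed under an older symbol in the single-cell tables. Python 3.11.15, numpy 2.4.6, pandas 2.3.3, scipy 1.17.1 and matplotlib 3.10.9 were used for the rest.

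A shared number in bulk library names was read as a shared brain. Residual correlations between same-numbered libraries ran from -0.054 to 0.0801, and between same-numbered plates from -0.0346 to 0.0983. Members, lists, tests and alternatives were chosen with earlier results of these data known. Genes named in the text were, per population, the 8 with the largest positive difference among called genes whose 3 libraries lie above the 9 others, the 3 with the highest level per kb, the 3 with the largest difference without the neural libraries, and a fixed list of channels with a textbook role. *Kcna1*, *Kcnj5*, *Kcnj6* and the other genes named once were added after their values were seen, and some genes are not reported here by name. As alternatives, the pseudocount, the filter on low values, the scaling, the test tool (edgeR on the recovered bulk reads) and the depth asked of a cell were changed 1 at a time, a replicate block was added, and replicates were left out in turn.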

Additional observations from a re-analysis of the deposited data

How the results depend on the processing

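Alternatives kept the direction of all but 1 of the named differences. *Kcnj10* in mural bulk libraries reversed without library Mu-343, and with 1 library left out at a time it ran from -1.62 to 4.65. Over all refits of named genes in the population of their highest mean, 976 bulk values kept direction and call, 2 lost the call and 2 gained it, and in single cells 111 kept both, 4 lost the call and 1 gained it. This tally leaves out calls in a second population and the comparison without neural libraries, and further calls were lost in both. In that comparison *Kcnj2* and *Kcnj15* lost their endothelial calls by limma without Ec-346 (adjusted p = 0.0628 and 0.0504). With a pseudocount of 5, channel genes over 10-fold higher in mural bulk libraries went from 9 to 4. With a minimum mean of 50, which tests fewer genes, those higher in bulk microglia went from 11 to 6 and those higher in mural libraries without neural ones from 17 to 9. With edgeR on recovered reads, those over 10-fold higher in microglia went from 6 to 11. In single cells, DESeq2 called 2 genes in the mural and 2 in the endothelial gate in place of 4 each, cells over 3000 transcripts gave 2 in the endothelial gate, and the fit with no filter, which tests 107 channel genes, gave 47 in the neural (12.6% of all genes), 10 in the mural (7.90%), 9 in the endothelial (9.54%) and 7 in the microglial gate (11.6%). Beyond the number of genes tested, the cause of these shifts was not tested.

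With 1 library left out at a time, bulk counts of higher genes ran from 73 to 83 (neural), 12 to 16 (mural), 12 to 16 (endothelial) and 9 to 13 (microglial), and counts over 10-fold from 65 to 71, 9 to 11, 9 to 10 and 5 to 8. Without neural libraries they ran from 11 to 17 (mural, lowest without Mu-343 or Mu-346), 10 to 13 (endothelial) and 7 to 11 (microglial, lowest without Mu-340, Mu-343 or Mi-343). In single cells they ran from 6 to 25 (neural), 1 to 9 (mural), 1 to 5 (endothelial) and 2 to 3 (microglial): without plate 1 they were 7, 1, 1 and 2, without plate 2 they were 6, 1, 1 and 2, and without plate 3, the plate with fewest cells, 25, 9, 5 and 3.

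With brain as a replicate block, bulk counts were 82, 14, 15 and 12, counts over 10-fold were 71, 9, 10 and 6, and counts without neural libraries were 16, 10 and 11. With plate as a block, single-cell counts stayed at 15, 4, 4 and 3. Plate 3 had the fewest cells, and without it 35 channel genes passed the filter on low counts in place of 21.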
